A study of Homo sapiens with 6 samples.

Results

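The EGR, NR4A and IER early genes are 10 genes chosen by name from the count table of this series, namely EGR1, EGR2, EGR3, EGR4, NR4A1, NR4A2, NR4A3, IER2, IER3 and IER5. All 10 were found among the 60675 gene rows of the table, and 9 of them were among the 18267 genes with enough reads to be tested. EGR4 did not pass that filter and is described by its reads alone. The libraries hold total RNA, depleted of ribosomal RNA, from HEK293, an established human cell line derived from embryonic kidney. There were 3 libraries labelled MOCS2 RNAi knockdown and 3 labelled control, which the labels also call wild type. Both were grown in the same high-glucose medium with serum and the selection drug Geneticin, and nothing in the labels says that serum was withdrawn or that a stimulus was given. The labels do not say how the RNAi was delivered, whether a line was 1 clone or whether replicates were separate cultures, so a p-value here measures the spread between these libraries, which could be of technical origin.

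Immediate early genes are transcribed within minutes of a growth factor, stress or depolarization signal, without new protein synthesis, and their transcripts are short-lived. EGR1 to EGR4 encode zinc-finger transcription factors that bind GC-rich sites, and the ERK kinase pathway switches them on through serum response factor (SRF) and its ETS-type partners at CArG boxes. NR4A1, NR4A2 and NR4A3 (also called Nur77, Nurr1 and NOR1) are orphan nuclear receptors that act without a known hormone and often respond to cyclic AMP. The IER genes share little beyond their rapid induction: IER2 is a nuclear protein, IER3 acts in ERK signalling and cell survival, and IER5 binds the heat shock factor HSF1 and the phosphatase PP2A.

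The gene the RNAi was aimed at was not lower. MOCS2, which encodes both subunits of molybdopterin synthase, had 69.8, 58.9 and 59.9 CPM (read counts scaled to library size with TMM factors) in knockdown 1, 2 and 3, as the labels number them, against 57.8, 66.6 and 65.6 CPM in controls 1, 2 and 3. Its log2 fold change was -0.01 with a 95% interval of -0.33 to 0.31 (edgeR adjusted p = 0.976). Every direction given here is therefore that of libraries labelled knockdown against controls, while MOCS2 RNA itself was not measurably reduced. Reads assigned to genes ran from 17958632 to 19362299 in the libraries labelled knockdown and from 19895547 to 22171106 in the controls. The library labelled knockdown 2 had 37.5% of its counted reads assigned to no gene, where the remaining 5 had at most 24.95%. The part of depth, of these unassigned reads or of cell type markers in the differences described here was not tested. The 6 HEK293 and epithelial markers summed to between 1755 and 2442 CPM in the libraries labelled knockdown and to between 1255 and 1732 CPM in controls, while the 5 blood markers summed to under 3 CPM in every library, and CD3E and HBB had 12 reads or fewer over all 6. Without VIM, the intermediate filament gene that made up most of that sum, the ranges were 526.8 to 915.3 CPM in the libraries labelled knockdown and 577.9 to 810.4 CPM in controls, which overlap, and NEFL was lower without overlap (125.1 ± 8.80 CPM in the libraries labelled knockdown and 160.4 ± 6.01 CPM in controls, SD, n = 3 each). The 8 fibroblast markers summed to between 11.3 and 19.0 CPM in the libraries labelled knockdown and between 20.9 and 34.7 CPM in controls. LUM and PDGFRA carried that gap, and the other 6, collagen genes included, summed to between 8.43 and 17.1 CPM in the libraries labelled knockdown and between 8.86 and 12.6 CPM in controls. Leaving these genes out was a choice made after the data were seen. In bulk RNA, fewer cells of a type and less RNA per cell cannot be told apart.

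Promoter sequence was available for 7 of the 10 genes, with 10 start sites in all (EGR2 has 3 and NR4A1 has 2), from RefSeq on GRCh38.p14. EGR3, NR4A2 and IER3 had no promoter sequence and were not searched. Each window runs from 250 bases before the start to 50 after it, and motifs were searched on both strands. The CArG box, the SRF site, was searched as CC, then 6 letters that are A or T, then GG, with no mismatch allowed. It was found in 2 of these 10 windows, those of EGR1 and of 1 EGR2 start, and in 1.29% of all 35116 promoter windows. EGR1 held it at -105 and -83 and EGR2 at -71 relative to the start. No window of these genes held the full cyclic AMP response element TGACGTCA (1.85% of all windows), the EGR element GCGTGGGCG or GCGGGGGCG (5.77%), the NR4A element AAAGGTCA known as NBRE (1.22%) or TATAAA (11.5%). The ETS core CCGGAA was in 3 of the 10 windows (17.2% of all) and the Sp1 box GGGCGG in 6 (45.0% of all). The core TGACG (CRE core), which a full cyclic AMP response element holds on each strand, was added after the sequences were seen, and was in 5 of the 10 windows against 24.6% of all. These matches describe letters in a window and say nothing on whether a factor bound there.

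The 200 bases before the start are printed for 4 genes picked to show both motifs. EGR1 and EGR2 have CArG boxes and 2 TGACG cores each. EGR4 and NR4A3 have 2 and 4 TGACG cores and no exact CArG match, and near matches were not searched. Capitals mark CArG boxes and the letters TGACG or CGTCA. They lie on chr5:138465279-138465478 (plus strand), chr10:62816367-62816566 (minus), chr2:73293549-73293748 (minus) and chr9:99821685-99821884 (plus).
EGR1: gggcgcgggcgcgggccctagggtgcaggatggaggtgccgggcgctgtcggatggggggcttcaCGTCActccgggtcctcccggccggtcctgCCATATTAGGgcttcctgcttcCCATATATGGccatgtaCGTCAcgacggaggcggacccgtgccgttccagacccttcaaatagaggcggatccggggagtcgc
EGR2: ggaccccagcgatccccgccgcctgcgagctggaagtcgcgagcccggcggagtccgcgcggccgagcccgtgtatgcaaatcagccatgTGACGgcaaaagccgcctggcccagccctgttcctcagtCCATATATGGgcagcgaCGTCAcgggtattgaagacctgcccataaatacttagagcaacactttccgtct
EGR4: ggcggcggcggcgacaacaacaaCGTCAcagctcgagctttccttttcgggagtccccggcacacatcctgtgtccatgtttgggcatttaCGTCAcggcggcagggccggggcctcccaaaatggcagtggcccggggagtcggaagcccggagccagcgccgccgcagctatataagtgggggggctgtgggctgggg
NR4A3: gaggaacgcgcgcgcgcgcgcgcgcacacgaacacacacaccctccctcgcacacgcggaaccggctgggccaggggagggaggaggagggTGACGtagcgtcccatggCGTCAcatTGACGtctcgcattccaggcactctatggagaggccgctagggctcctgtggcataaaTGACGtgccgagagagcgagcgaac

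**Figure D1:**
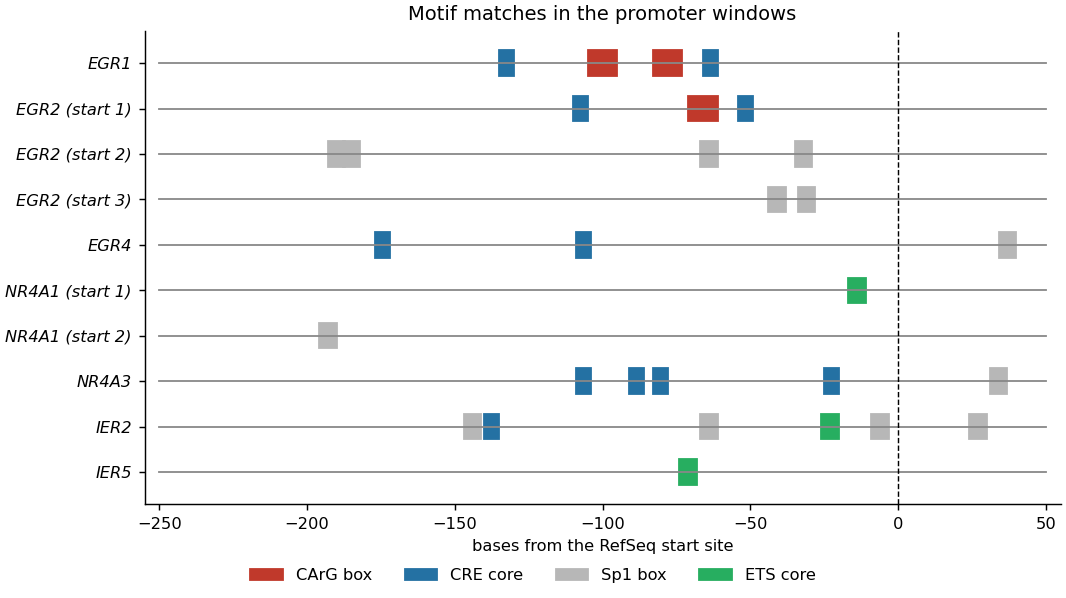
Positions of motif matches in the promoter windows of 7 genes (10 start sites), in bases from the RefSeq start site at 0; boxes are matches on either strand, coloured by motif. CArG boxes appear in the windows of EGR1 and of 1 EGR2 start, and CRE cores in 5 windows.

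EGR1, EGR2 and EGR3 had the largest differences of the 10 genes. EGR1, EGR2 and EGR3 averaged 4.72, 3.19 and 3.15 times their control level in the libraries labelled knockdown, ahead of IER3 at 1.67 times and NR4A1 at 1.58 times. NR4A2, NR4A3, IER2 and IER5 averaged between 1.00 and 1.23 times, as did the untested EGR4 at 1.18 times. None of the 9 tested genes passed edgeR's quasi-likelihood test after adjustment over all genes at 0.05, and neither did any other gene (0% of 18267). At an unadjusted p under 0.05, EGR1, EGR2, EGR3, NR4A1 and IER3 were higher, where 9.93% of all tested genes were. DESeq2 called EGR1, EGR2 and EGR3 higher at an adjusted p of 0.05, where it called 3.06% of tested genes higher, and limma voom called none of them. The median log2 fold change of the 9 genes was 0.66, against 0.02 over all tested genes.

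**Figure D2:**
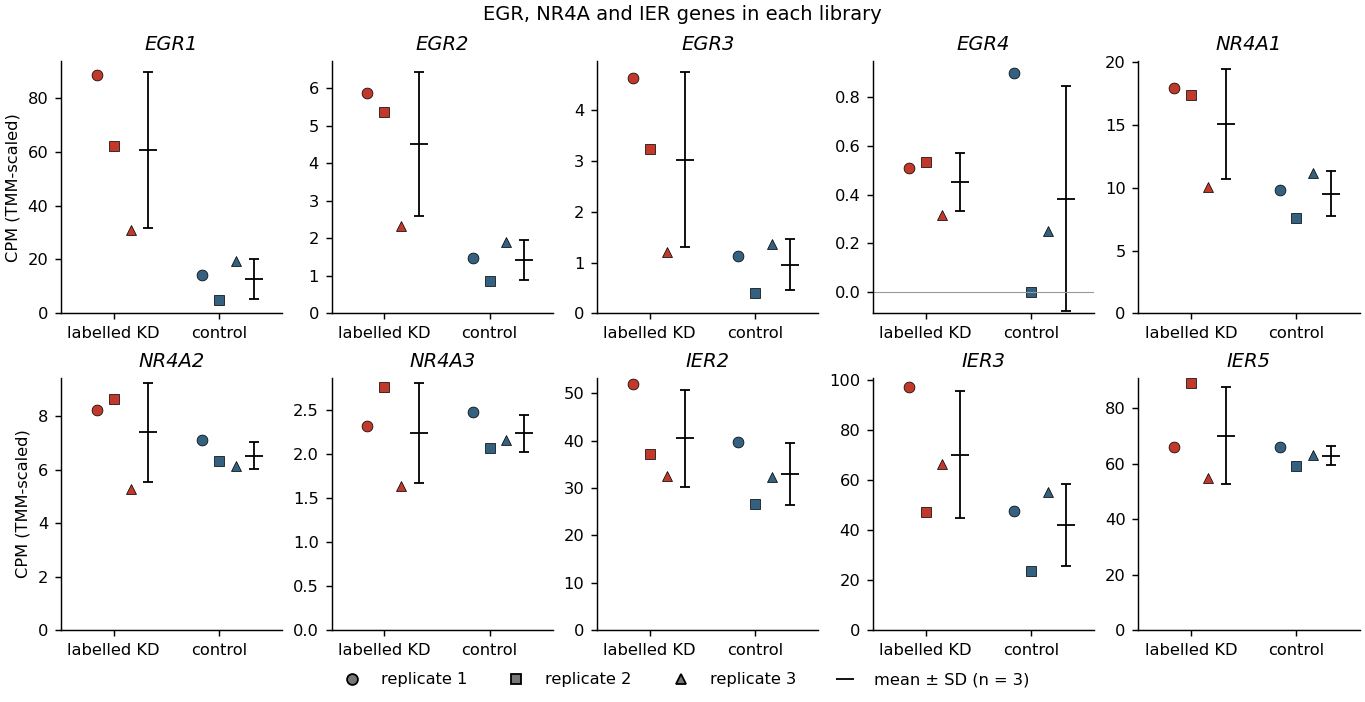
CPM of each of the 10 genes in each library, with libraries labelled MOCS2 knockdown (KD, red) left of controls (blue); marker shape gives the replicate number and the bars are mean ± SD over 3 libraries. EGR1 and EGR2 separate the groups without overlap, while EGR3, EGR4 and the NR4A and IER genes overlap.

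EGR1 (ENSG00000120738, chromosome 5, 138465490 to 138469315, plus strand, GRCh38), the most studied EGR factor and a target of ERK and SRF, had 88.5, 62.1 and 31.1 CPM in the libraries labelled knockdown 1, 2 and 3, against 14.4, 4.81 and 19.3 CPM in controls 1, 2 and 3. Every library labelled knockdown stood above every control, and the spread within each group was wide, with a coefficient of variation of 47.5% in the libraries labelled knockdown and 57.4% in controls. EGR1 had a log2 fold change of 2.24 (SE 0.47) and a 95% interval of 1.21 to 3.27 (edgeR adjusted p = 0.0776). It ranked 143 of 18267 genes by p and 41 by fold change. Groups without overlap in this direction were found for 12.5% of all tested genes.

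EGR2 (ENSG00000122877, chromosome 10, 62811996 to 62919900, minus strand), known for its part in Schwann cell myelination and hindbrain patterning, kept the same order of libraries as EGR1. It had 5.88, 5.37 and 2.32 CPM in the libraries labelled knockdown 1, 2 and 3, against 1.48, 0.853 and 1.91 CPM in controls 1, 2 and 3. The groups did not overlap, although knockdown 3 and control 3 lay close together. These values rest on 44 to 104 reads in the libraries labelled knockdown and 19 to 38 reads in controls, and gave a log2 fold change of 1.67 (SE 0.42; edgeR adjusted p = 0.0979).

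EGR3 (ENSG00000179388, chromosome 8, 22687659 to 22693302, minus strand), which acts in T cells and muscle spindles, had 4.64, 3.24 and 1.21 CPM in the libraries labelled knockdown 1, 2 and 3, against 1.12, 0.404 and 1.36 CPM in controls 1, 2 and 3. Knockdown 1 and 2 were above all controls and knockdown 3 lay inside their range, at 23 reads against 9 to 27 reads. EGR3 had a log2 fold change of 1.65 (SE 0.53; edgeR adjusted p = 0.137).

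EGR4 (ENSG00000135625, chromosome 2, 73290929 to 73293705, minus strand), a family member best known from neurons and germ cells, was near the limit of detection. It had 9, 10 and 6 reads in the libraries labelled knockdown 1, 2 and 3, against 20, 0 and 5 reads in controls 1, 2 and 3. In CPM these were 0.509, 0.531 and 0.317 against 0.899, 0 and 0.252, and the 0 reads of control 2 allow up to 0.135 CPM at a limit of 3 reads, which covers counting error only. The controls lay on both sides of the libraries labelled knockdown, and no difference was detectable at this depth. With no filter the log2 fold change was 0.20 (edgeR adjusted p = 0.904).

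Summed over the 4 EGR genes, the libraries labelled knockdown held 99.5, 71.3 and 34.9 CPM and the controls 17.9, 6.06 and 22.8 CPM. EGR1 alone made up 88.3% of the mean sum in the libraries labelled knockdown and 82.3% in controls.

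Of the NR4A genes, NR4A1 had the highest fold change. NR4A1 (ENSG00000123358, chromosome 12, 52022832 to 52059507, plus strand), the receptor tied to T cell selection and apoptosis, had 17.9, 17.4 and 10.1 CPM in the libraries labelled knockdown 1, 2 and 3, against 9.84, 7.63 and 11.2 CPM in controls 1, 2 and 3. Knockdown 1 and 2 exceeded all controls, and knockdown 3 lay between controls 1 and 3. NR4A1 had a log2 fold change of 0.66 (SE 0.26) and a 95% interval of 0.10 to 1.23 (edgeR adjusted p = 0.188).

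NR4A2 (ENSG00000153234, chromosome 2, 156324432 to 156342348, minus strand), needed for dopamine neurons, had 8.26, 8.66 and 5.28 CPM in the libraries labelled knockdown and 7.10, 6.33 and 6.14 CPM in the controls. Knockdown 1 and 2 were above the 3 controls and knockdown 3 was below them. NR4A3 (ENSG00000119508, chromosome 9, 99821855 to 99866891, plus strand) had 2.32, 2.76 and 1.64 CPM in the libraries labelled knockdown and 2.47, 2.07 and 2.16 CPM in the controls, so the groups lay across each other. The log2 fold changes were 0.18 (95% interval -0.37 to 0.73, edgeR adjusted p = 0.714) for NR4A2 and 0.00 (-0.66 to 0.67, edgeR adjusted p = 0.997) for NR4A3. These intervals do not cover a fold change of the size fitted for EGR1, though they leave room for smaller ones in either direction.

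The IER genes summed to 215.3, 173.3 and 153.4 CPM in the libraries labelled knockdown and 153.3, 109.5 and 150.6 CPM in controls. IER3 (ENSG00000137331, chromosome 6, 30743199 to 30744554, minus strand), a regulator of apoptosis and ERK dephosphorylation, had 97.1, 47.0 and 66.2 CPM in the libraries labelled knockdown 1, 2 and 3, against 47.5, 23.5 and 55 CPM in controls 1, 2 and 3. Here knockdown 1 and 3 were above all controls, and knockdown 2 lay just under control 1. IER3 had a log2 fold change of 0.74 (SE 0.32; 95% interval 0.04 to 1.44, edgeR adjusted p = 0.226).

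IER2 (ENSG00000160888, chromosome 19, 13150415 to 13154908, plus strand) had 52.0, 37.1 and 32.4 CPM in the libraries labelled knockdown, against 39.7, 26.7 and 32.3 CPM in controls. Knockdown 1 was above all controls and the other 2 lay inside their range (log2 fold change 0.30, SE 0.21, edgeR adjusted p = 0.442). IER5 (ENSG00000162783, chromosome 1, 181088712 to 181092899, plus strand) was the steadiest of the 10 genes among controls, at 66.1, 59.3 and 63.3 CPM, a coefficient of variation of 5.39%. In the libraries labelled knockdown it had 66.2, 89.2 and 54.8 CPM, with knockdown 2 above the controls, knockdown 1 level with control 1 and knockdown 3 below them (log2 fold change 0.16, SE 0.18, edgeR adjusted p = 0.661).

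**Figure D3:**
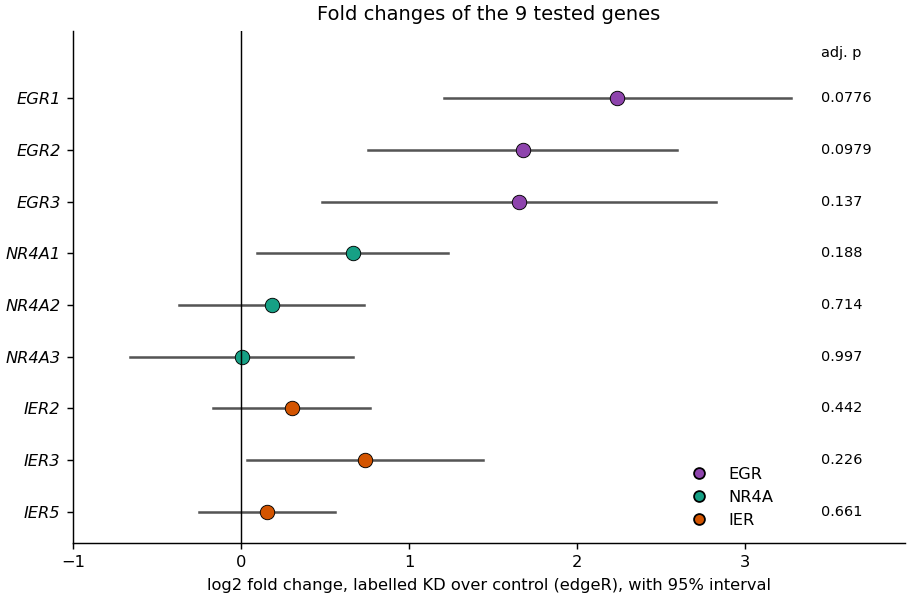
Log2 fold change of libraries labelled knockdown (KD) over controls for the 9 tested genes, with the 95% interval as a line and edgeR's adjusted p at the right; colour gives the family. EGR1, EGR2 and EGR3 lie between 1.65 and 2.24, and the intervals of NR4A2, NR4A3, IER2 and IER5 cross 0.

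Genes on the opposite strand overlap exons of EGR3, NR4A1, IER2 and IER3 in GENCODE release 29, and whether reads were counted by strand is not stated in the labels, so these 4 carry that uncertainty. The shared exonic bases numbered 164 for EGR3, 754 for NR4A1, 946 for IER2 and 359 for IER3. IER3-AS1 had 10 to 13 reads in the libraries labelled knockdown and 12 to 24 in controls, against at least 523 reads of IER3 in each library, and the other 3 overlapping genes had at most 4 reads in any library. HTSeq set aside 2.87% to 3.70% of reads per library as ambiguous. If strand was ignored, reads in shared bases could be among them, so these low counts do not bound that loss.

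The levels of the genes were compared per length, as CPM per kilobase of exon (RPKM). In the libraries labelled knockdown the order of mean RPKM was IER3 (51.7), EGR1 (19.3), IER5 (16.7), IER2 (13.2), NR4A1 (2.07), NR4A2 (1.86), EGR2 (1.23), EGR3 (0.624), NR4A3 (0.355) and EGR4 (0.190). Only 3 steps of that order separated the ranges over libraries: IER3 from EGR1, IER2 from NR4A1, and NR4A3 from EGR4. In controls the order of mean RPKM was IER3 (31.0), IER5 (15.0), IER2 (10.7), EGR1 (4.09), NR4A2 (1.64), NR4A1 (1.31), EGR2 (0.384), NR4A3 (0.354), EGR3 (0.198) and EGR4 (0.161). The neighbours whose ranges overlapped were EGR1 with NR4A2, EGR2 with NR4A3, and EGR3 with EGR4. EGR1 thus stood at position 2 in the libraries labelled knockdown and at position 4 in controls, where its range lay below that of IER2. With the length of the principal transcript in place of all exons, a choice made after the data were seen, NR4A1 stood above NR4A2 in controls as well (1.97 and 1.88 RPKM), with overlapping ranges.

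The lowest library of each group was nearly always the same. Knockdown 3 was the lowest of its group for 9 of the 10 genes, all but IER3, and control 2 was the lowest control for 9 of the 10, all but NR4A2. Both counts were 8 of the 9 tested genes, which leave out EGR4 with its few reads. Over all tested genes, knockdown 3 was lowest for 34.3% and control 2 for 35.9%. These 10 genes come from families of early genes and cannot be taken as independent of each other. The highest library varied: it was knockdown 1 for 6 genes and knockdown 2 for 4, and control 1 for 5 and control 3 for 5. The EGR genes showed the widest steps: relative to the control mean, EGR1 stood 2.99, 2.48 and 1.49 log2 units higher in knockdown 1, 2 and 3, and control 2 stood at -1.18. Knockdown 1 was above all controls for 8 of the 10 genes (for IER5 by under 1 CPM), knockdown 2 for 7 and knockdown 3 for 3 (EGR1, EGR2 and IER3), against 37.6%, 38.4% and 30.6% of all tested genes.

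**Figure D4:**
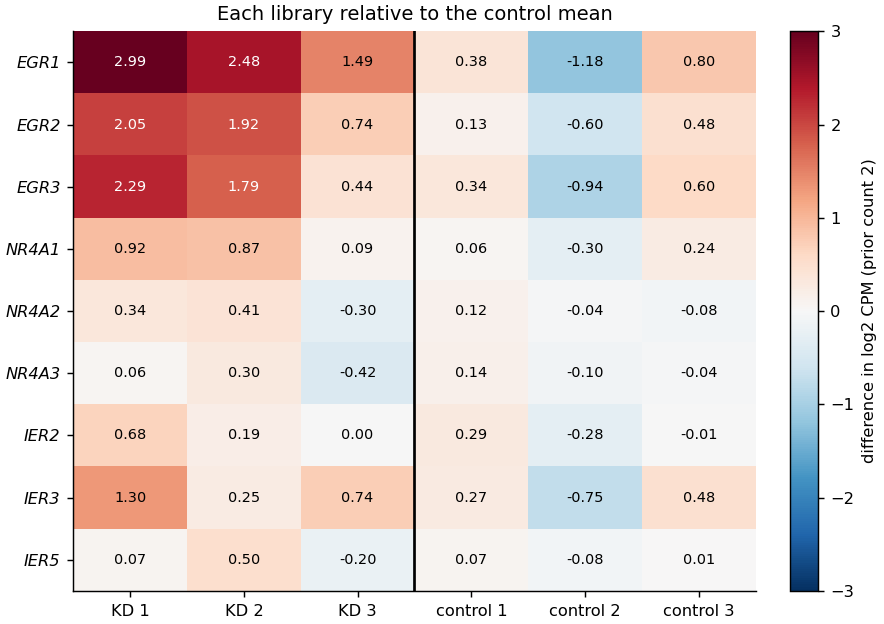
Difference of each library's log2 CPM (prior count 2) from the mean of the controls, for the 9 tested genes (rows) in libraries labelled knockdown (KD) and controls (columns). Red cells are above the control mean; EGR1 runs from 2.99 in knockdown 1 to -1.18 in control 2.

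EGR1 was also among the genes that varied most between replicates. Its SD of log2 CPM was 0.77 in the libraries labelled knockdown and 1.05 in controls, above 92.7% and 99.5% of all tested genes. For EGR3 the SDs were 0.96 and 0.82 (above 96.8% and 98.4% of genes), and for IER3 0.52 and 0.65 (above 79.3% and 96.4%). NR4A2, NR4A3 and IER5 varied less than most genes among controls, with SDs of 0.11, 0.13 and 0.08 where the median over tested genes was 0.16. In the libraries labelled knockdown they varied more than most genes, with SDs of 0.39, 0.37 and 0.35 where the median was 0.31. Those SDs were above 63.3%, 59.9% and 57.8% of genes. EGR3 had as few as 9 reads in a library, while EGR1 had 107 reads or more in each.

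By edgeR, calls among these genes depended on whether knockdown 3 was included and on the filter. Without knockdown 3, edgeR called EGR1 (log2 fold change 2.55, adjusted p = 0.00375), EGR2 (1.99, adjusted p = 0.00527), EGR3 (2.03, adjusted p = 0.0129) and NR4A1 (0.88, adjusted p = 0.0185), 4 of the 10 genes tested there, and 6.46% of all genes were called higher. Leaving out any other library left no call among them, and their fold changes stayed positive throughout: EGR1 ranged from 1.84 to 2.64, EGR2 from 1.41 to 1.99 and EGR3 from 1.21 to 2.03. With no filter on low counts, edgeR called EGR1, EGR2, EGR3 and IER3, where it called 1.6% of 43251 genes higher.

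**Figure D5:**
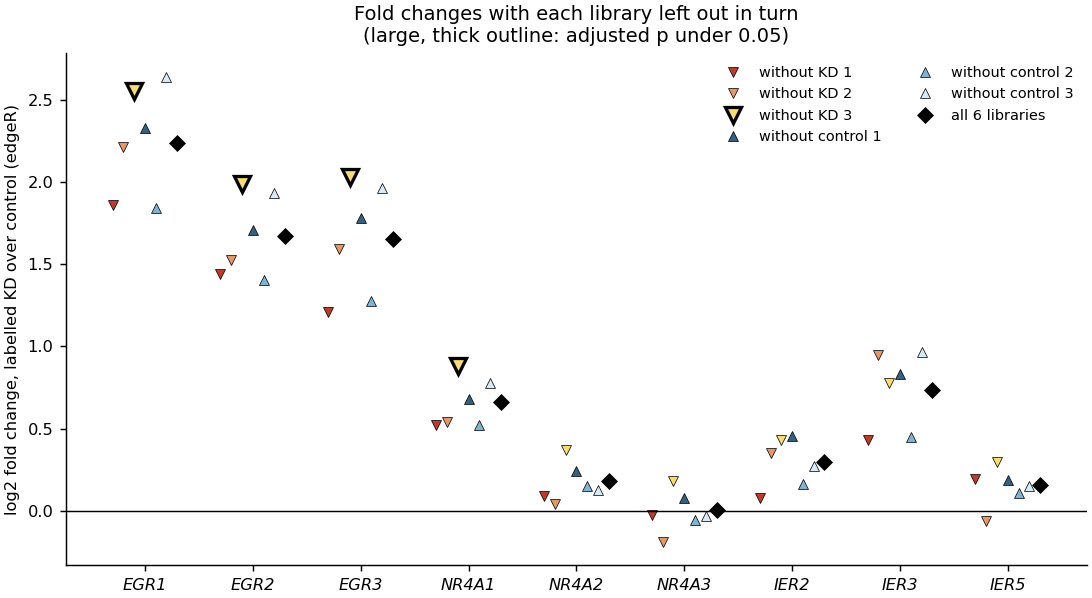
Log2 fold change of each tested gene with all 6 libraries (diamonds) and with each library left out in turn (triangles); large markers with a thick outline have an edgeR adjusted p under 0.05. The marked values belong to EGR1, EGR2, EGR3 and NR4A1 without the library labelled knockdown 3.

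Genes that work with these families were read from lists of known partners. Of the 2 EGR corepressors, NAB2, itself an EGR target, had 20.3, 24.9 and 13 CPM in the libraries labelled knockdown and 9.21, 7.77 and 11.6 CPM in controls, with no overlap (log2 fold change 1.03, SE 0.26; adjusted p = 0.100 by edgeR and 0.00723 by DESeq2). Its relative NAB1 had 92.8, 83.5 and 81.2 CPM in the libraries labelled knockdown and 76.0, 97.9 and 73.1 CPM in controls, which overlap (0.06, edgeR adjusted p = 0.858). SRF had 94.9, 93.1 and 73.0 CPM in the libraries labelled knockdown and 59.2, 52.9 and 59.7 CPM in controls (0.60, adjusted p = 0.101 by edgeR and 0.0206 by DESeq2). Its partner ELK1 averaged 53.6 ± 6.03 CPM in the libraries labelled knockdown and 43.4 ± 2.14 CPM in controls (SD, n = 3 each, adjusted p = 0.266 by edgeR and 0.294 by DESeq2). Of the 6 genes of SRF and its cofactors, 3 were higher at an unadjusted p under 0.05 (9.93% of all tested genes), with a list median of 0.34.

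Of 9 CREB, CRTC and MEF2 genes, 3 were higher at an unadjusted edgeR p under 0.05, where 9.93% of all tested genes were, with a list median of 0.30 against 0.02 over all tested genes. They include ATF1, a CREB relative, at 59.5 ± 18.0 CPM in the libraries labelled knockdown and 36.6 ± 3.19 CPM in controls. MEF2A averaged 159.4 ± 30.2 CPM in the libraries labelled knockdown and 108.3 ± 1.57 CPM in controls (SD, n = 3 each). For ATF1 and MEF2A the adjusted p was 0.0382 and 0.0459 by DESeq2, and 0.120 for both by edgeR. Of 12 ERK cascade genes, 3 were higher and 1 lower by that measure, where 9.93% of all tested genes were higher and 10.6% lower, with a list median of 0.14. The kinase gene MAP2K1 did not pass, with 77.8 ± 23.2 CPM in the libraries labelled knockdown against 71.4 ± 1.1 CPM in controls (SD, n = 3 each). The lower one was MAPK3, which encodes ERK1 and was named after its values were seen. It had 18.8, 28.2 and 34.8 CPM in the libraries labelled knockdown and 39.3, 43.2 and 53.4 CPM in controls (log2 fold change -0.73, adjusted p = 0.125 by edgeR and 0.0431 by DESeq2).

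RXRA and RXRB, the retinoid X receptors that pair with NR4A1 and NR4A2, had log2 fold changes of 0.17 and 0.06 (edgeR adjusted p = 0.657 and 0.852), and 0 of the 2 tested of 3 listed were higher at an unadjusted p under 0.05. Among 8 genes of HSF1, PP2A subunits and heat shock targets, 2 were higher by that measure, PPP2R2A and HSPH1, against 9.93% of all tested genes. The list median was 0.39. The chaperone genes HSPA1A and HSPA1B, near-identical copies whose reads cannot be assigned with certainty, averaged 576.2 ± 266 and 398.7 ± 127 CPM in the libraries labelled knockdown, against 426.2 ± 141 and 312.1 ± 110 CPM in controls (SD, n = 3 each). Neither HSPA1A nor HSPA1B passed that measure, and for both the groups overlapped (edgeR adjusted p = 0.488 and 0.496). Of 6 factors that degrade or bind AU-rich early transcripts, 2 were higher by the same measure (9.93% of all tested genes), with a list median of 0.40. The most abundant, KHSRP and ELAVL1, had log2 fold changes of 0.23 and 0.13 (edgeR adjusted p = 0.468 and 0.665).

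Among 26 tested immediate early genes of other families, 15 were higher and 0 lower at an unadjusted edgeR p under 0.05, where 9.93% and 10.6% of all tested genes were. Their median log2 fold change was 0.73, and edgeR called 0 after adjustment. DESeq2 called 8 of them higher, where it called 3.06% of tested genes higher. Of the genes described next, JUN and FOS were among the 15 but not among the 8, and MCL1 and IER5L were in neither count. JUN averaged 252.2 ± 38.3 CPM in the libraries labelled knockdown and 186.9 ± 30.6 CPM in controls, and MCL1 averaged 309.4 ± 50.2 CPM in the libraries labelled knockdown and 249.3 ± 6.23 CPM in controls (SD, n = 3 each). FOS, named here after its values were seen, had 51.4, 44.4 and 18.7 CPM in the libraries labelled knockdown and 12.6, 3.14 and 15.6 CPM in controls, the same order of libraries as EGR1 in each group. IER5L, a relative of IER5 also named after its values were seen, had 7.35, 9.73 and 5.65 CPM in the libraries labelled knockdown and 6.92, 3.37 and 8.11 CPM in controls, which overlap.

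The genes whose profile over the 6 libraries was most like that of EGR1 were PAPPA2 (Pearson r = 0.998), AOC3 (0.996), LINS1 (0.996), MAX (0.994) and TAP2 (0.994), the highest of 12471 protein-coding genes compared. PAPPA2, a protease of IGF-binding proteins, had 36.9, 25.3 and 13.9 CPM in the libraries labelled knockdown and 6.20, 2.07 and 9.46 CPM in controls. Most like the mean profile of the 9 tested genes were INHBA, the activin A subunit (r = 0.996), SGF29 (0.993), CUZD1 (0.993) and WDR47 (0.991). These r values describe 6 points that share their libraries and were picked as the highest, and they carry no test.

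The structure of the genes was not used to choose them. The principal transcript of 7 of the 10 has 2 exons or fewer, as have 8.69% of 14147 tested protein-coding genes, and the median span was 4274 bases against 28104 bases. The exceptions were NR4A1 with 3 exons, NR4A2 with 8 and NR4A3 with 9 exons over 45037 bases. Among the 1229 tested protein-coding genes with 2 exons or fewer, 16.5% stood above all controls in all 3 libraries labelled knockdown, and the median log2 fold change was 0.08. Over all 14147 tested protein-coding genes these values were 12.5% and -0.0063. No test of that difference was made.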

How the data were processed

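Total RNA sequencing of 6 HEK293 libraries was analysed from 1 table. The authors deposited raw read counts per Ensembl gene, not normalized. The submitters' processing notes name the build hg38 and the tools HTSeq, TopHat2 2.0.13 and bcl2fastq 2.18. No label gives the annotation, the strand setting or the HTSeq version. HTSeq's summary rows entered neither library sizes nor tests. Symbols and coordinates come from GENCODE release 29 by Ensembl identifier (3620 of 60675 had no match).

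Counts were tested with edgeR 4.0.16 (TMM, filterByExpr, quasi-likelihood F test, two-sided, Benjamini-Hochberg over 18267 genes) in R 4.3.3, a procedure also tested on simulated data. Intervals use edgeR's moderated degrees of freedom (median 10.6). Alternatives were DESeq2 1.42.0, limma 3.58.1 voom, other scalings and filters, a replicate block, and leaving out each library. CPM values use TMM-scaled library sizes, and RPKM divides them by exonic length.

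Every one of the 10 genes is named. A few genes that the naming rules pick outside these 10 are not reported here. From each list, genes past the adjusted threshold were to be named, at most 4, or else the 2 of highest mean RPKM. The genes, lists and tests were chosen with earlier results of these data known. No pair of replicates matched within counting error (chi-square over degrees of freedom 13.4 to 89.0).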

Additional observations from a re-analysis of the deposited data

How the results depend on the processing

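Over all genes the number called was 0 with all 6 libraries and was also 0 with DESeq2 size factors, upper-quartile factors, at least 1 CPM in 3 libraries, or limma voom. It was 1574 with no filter, 1145 with DESeq2 and 19 with the replicate number as a block (replicate block), and it ranged from 0 to 2815 over the fits that left out 1 library (4 without control 3, 2815 without the library labelled knockdown 3). For the 10 genes it was 0, with 4 of 10 with no filter, 3 of 9 with DESeq2 and 0 with the replicate block. It was 0 to 4 with a library left out (4 of 10 without knockdown 3). For the context lists it was 0, with 19 of 73 with no filter, 15 of 71 with DESeq2 and 0 with the replicate block. With a library left out it was 0 to 25 of 71. Over all genes the shares called were 3.64% with no filter, 6.27% with DESeq2 and 14.8% without knockdown 3. All counts here take both directions together. The calls among the 10 genes were all higher. Of the list calls, 1 was lower with no filter, 1 with DESeq2 and 2 without knockdown 3. The cause of the differences between settings was not tested. The replicate block changed no call among the 10 genes. Same-numbered replicates did not deviate together (correlations 0.114, -0.167 and -0.125 for numbers 1, 2 and 3), so numbers were not taken as pairs. Pairs of different number ran from -0.077 to 0.189 over the 18267 tested genes. The highest were control 2 with knockdown 3 (0.189) and control 3 with knockdown 2 (0.182), and what set them was not tested.

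The MOCS2 log2 fold change was -0.0096. It was 0.0095 with upper-quartile factors and ranged from -0.094 to 0.027 with a library left out. NR4A3, at 0.0025, was -0.030 with no filter, -0.018 with the replicate block, -0.025 with limma voom and between -0.187 and 0.180 with a library left out. IER5 was between -0.064 and 0.298, the negative value without knockdown 2. The other 7 tested genes stayed positive under all 13 alternatives. Levels in CPM moved by less than 1 SD under both other scalings. EGR4 and EGR3 rest on few reads, which limits their precision.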

Other observations

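The lowest library of each group in the EGR genes was also the lowest for most immediate early genes of other families. Of 26 tested, knockdown 3 was the lowest library of its group for 23, all but BTG2, PER1 and MCL1, and control 2 was the lowest control for 22, all but BTG1, BTG2, DUSP5 and TRIB1. Over all tested genes these shares were 34.3% and 35.9%. The highest library was split, with knockdown 1 highest of its group for 12 and knockdown 2 for 13, and control 3 for 17 and control 1 for 8. This pattern was noticed after the values were seen. What set it was not tested, and the labels give no date, density or handling of the cultures by replicate.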
